A study of Rattus norvegicus with 9 samples.

Results

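Reg1a, Reg3a, Reg3b and Reg3g, 4 genes for small secreted lectins of the regenerating family, were followed in the proximal colon of rats whose dietary protein was casein (CAS), an isolate of soy protein (SPI) or a hydrolysate of whey protein (WPH). Their transcripts were measured by 5 of the 8799 probe sets of the array, namely every probe set to which the platform annotation gave 1 of these symbols and no other. Reg1a had 2 probe sets, E01983cds_s_at and M62930_at, Reg3a had D23676_at, Reg3b had M98049_s_at and Reg3g had L20869_at. The genes were chosen by their symbols after these same signals had been seen to differ between diets, so the changes of the Reg probe sets are given as a description, without a p-value.

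The study asked how the protein source of the diet alters colonic transcripts during chemically induced tumorigenesis. Male Sprague-Dawley rats ate the diet of their mothers from weaning onward, and all 3 groups received the colon carcinogen azoxymethane (AOM), in 2 subcutaneous doses of 15 mg/kg, 1 week apart, from 90 days of age. CAS was the control diet, so that no group was free of AOM. Tumor-free tissue of the proximal colon, muscle layer included, was collected 40 weeks later, and 8 µg of RNA pooled from 7 rats of each diet gave 3 targets made in parallel, each hybridized to its own array. The 3 arrays of a diet are therefore technical replicates of 1 pool, and every SD and p-value below measures labelling and hybridization and not the spread between rats. In a pool of whole tissue, fewer cells of a type and less RNA per cell cannot be told apart.

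Reg proteins hold 1 C-type lectin domain behind a signal peptide and are released into the gut lumen or into pancreatic juice. Reg3 proteins bind the cell walls of bacteria and keep them away from the epithelium, and the genes are known to be switched on in intestinal epithelium by microbes, injury and interleukin-22 or interleukin-6 through the transcription factor STAT3. Reg1a encodes the rat regenerating protein, also called lithostathine or pancreatic stone protein, and Reg3b, Reg3a and Reg3g encode the pancreatitis-associated proteins I, II and III of the rat.

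The 4 genes lie together on rat chromosome 4, in the order Reg3b, the pseudogene Reg3b-ps1, Reg3a, Reg1a, a long non-coding RNA gene and Reg3g. The 250 bases before each annotated transcription start are shown because the best known inducer of the Reg3 genes acts through STAT3, whose sites can be looked for there. Sequences are those of RefSeq for build GRCr8, where all 4 genes were matched, and each is printed 5′ to 3′ on the strand of its gene. The windows were chr4:112450216-112450465 (+ strand) for Reg1a, chr4:112430174-112430423 (+) for Reg3a, chr4:112419526-112419775 (+) for Reg3b and chr4:112484739-112484988 (- strand) for Reg3g. Capitals mark matches to the motifs spelled out in the next paragraph, on either strand.
Reg1a: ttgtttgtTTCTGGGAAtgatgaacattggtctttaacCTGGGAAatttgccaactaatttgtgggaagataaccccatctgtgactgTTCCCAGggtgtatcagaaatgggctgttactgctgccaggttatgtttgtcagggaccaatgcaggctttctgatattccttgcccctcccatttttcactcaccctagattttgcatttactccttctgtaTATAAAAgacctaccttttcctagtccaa
Reg3a: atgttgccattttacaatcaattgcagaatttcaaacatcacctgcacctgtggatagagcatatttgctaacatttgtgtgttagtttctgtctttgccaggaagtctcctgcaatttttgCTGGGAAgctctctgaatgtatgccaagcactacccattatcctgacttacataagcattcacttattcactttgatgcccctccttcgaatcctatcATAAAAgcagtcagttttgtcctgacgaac
Reg3b: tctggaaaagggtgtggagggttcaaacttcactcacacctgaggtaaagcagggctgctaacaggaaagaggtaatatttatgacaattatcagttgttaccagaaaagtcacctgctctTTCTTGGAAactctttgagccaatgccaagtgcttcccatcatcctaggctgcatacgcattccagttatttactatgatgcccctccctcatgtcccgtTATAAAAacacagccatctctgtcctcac
Reg3g: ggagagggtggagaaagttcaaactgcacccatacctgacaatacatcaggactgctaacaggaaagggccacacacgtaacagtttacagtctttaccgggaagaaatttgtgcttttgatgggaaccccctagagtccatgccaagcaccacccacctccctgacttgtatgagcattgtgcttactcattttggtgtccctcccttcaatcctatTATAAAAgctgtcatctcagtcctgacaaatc
Reg3a has 2 annotated starts, 27 bases apart, of which the downstream one was used.

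The motifs searched on both strands were the STAT letters TTCNNNGAA, the core of the interleukin-6 response element CTGGGAA, the TATA letters TATAAA, the overlapping ATAAAA and the AP-1 letters TGANTCA. The STAT letters were found in Reg1a, from position -242 to -234 before the start, and in Reg3b, from -129 to -121. They occur in 7.67% of the 33469 promoters of the table. CTGGGAA, found in 9.56% of promoters, began at -240, -212 and, on the other strand, -162 in Reg1a, and at -128 in Reg3a. The first of the Reg1a matches lies inside its STAT match. TATAAA, present in 12.9% of promoters, began at -29 in Reg1a and Reg3b and at -32 in Reg3g. Reg3a held the letters ATAAAA at -30, which 18.6% of promoters hold, in place of TATAAA. No window held TGANTCA, which 6.34% of promoters hold. The longest exact run shared by Reg3b and Reg3g was the 15 bases ctgctaacaggaaag, which starts at -195 in Reg3b and at -198 in Reg3g and was in 2 promoters of the table. Reg3a and Reg3b shared the 12 bases tgatgcccctcc, in 4 promoters, whereas the longest run of Reg1a with a Reg3 gene had 10 bases. A match of letters is a description of the window and shows no binding.

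**Figure D1:**
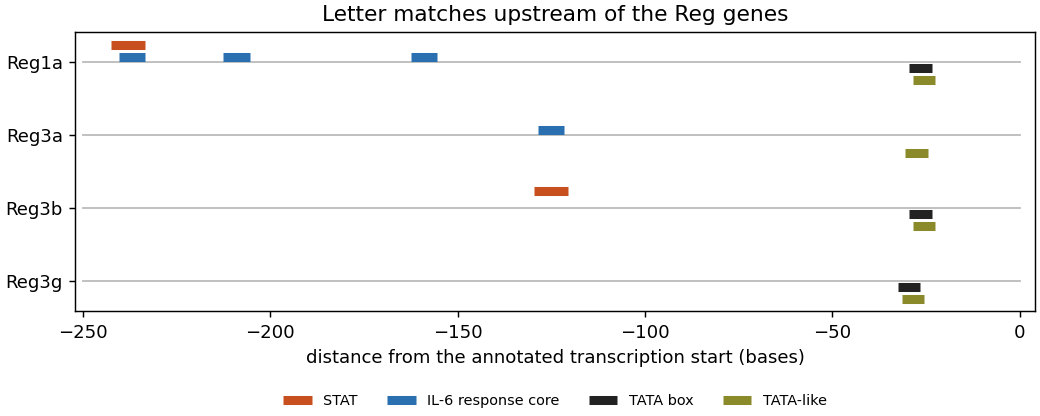
Positions of motif matches in the 250 bases before the annotated start of each Reg gene, in bases before the start, with 1 row per gene and 1 colour per motif. STAT letters are marked in Reg1a and Reg3b, the interleukin-6 core in Reg1a and Reg3a, and TATA or TATA-like letters close to the start in all 4 genes.

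Signals are the array software's intensity estimates in arbitrary units, brought by the authors to the same average, 500, on every array. Levels of different probe sets are not compared, since their probes differ. Between 58.7 and 60.3% of probe sets reached a signal of 100 on each array, and the medians of all signals were 149 to 166. Probe sets whose mean was at least 100 in at least 1 diet were compared, 5606 in all, and 4 of the 5 Reg probe sets were among them. The 3′ to 5′ signal ratio of the Actb control probe sets, a measure of how complete the labelled RNA was, averaged 1.86 on the arrays of CAS, 2.21 on those of SPI and 2.98 on those of WPH. That of Gapdh averaged 1.56, 1.56 and 1.63, without such a rise, and their part in the results was not tested. Rounds of the fluidics station were inferred from the clock time in each array's instrument file, a gap of over 30 minutes starting a new round. The date was not used, and which step the time marks is not stated. This gave 3 rounds, the CAS arrays with WPH 2, then SPI 1 and SPI 2 with WPH 1 and WPH 3, then SPI 3. SPI thus shared no round with CAS, and round and diet cannot be told apart directly in that comparison.

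The pool of SPI-fed rats gave far higher Reg1a, Reg3b and Reg3g signals than the pools of CAS-fed and WPH-fed rats. Reg3b, a bactericidal lectin of the gut and of the inflamed pancreas, had signals of 262.8, 198 and 214 on the CAS arrays, 16011, 13503 and 16636 on the SPI arrays and 423, 415 and 517 on the WPH arrays. All 3 SPI arrays lay far above the other 6, and the lowest WPH array lay above the highest CAS array. The CAS mean was 225 ± 33.8 (SD, n = 3), the SPI mean 15384 ± 1658 and the WPH mean 452 ± 56.7, so that SPI was 68.4-fold above CAS (log2 change 6.10, SE 0.14) and 34-fold above WPH (log2 change 5.09). Within the second round, SPI 1 and SPI 2 stood 31.4-fold above WPH 1 and WPH 3. The suffix of the Reg3b probe set, _s_at, marks probes that can match more than 1 transcript, as does that of the first Reg1a probe set, and signal shared with related Reg genes was not examined.

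Reg3g, which binds peptidoglycan and acts on Gram-positive bacteria, gave signals of 1448, 1441 and 1232 with CAS, 21112, 21442 and 20702 with SPI and 738, 689.5 and 779 with WPH. The 3 diets did not overlap, with SPI highest and WPH lowest. The means of 1374 ± 123, 21085 ± 371 and 736 ± 44.9 put SPI 15.4-fold above CAS (log2 change 3.94, SE 0.09) and 28.7-fold above WPH (log2 change 4.84). The SPI arrays varied by 1.76% of their mean, and their Reg3g signals lay below the highest signal of any probe set on those arrays, 33568 to 36568. Since probe sets differ, this does not show whether the Reg3g probes were saturated, which was not examined. Within the second round the SPI signals were 28-fold those of WPH. The paper lists PCR primers for Reg3g, as pancreatitis-associated protein III. It does not name that gene among those whose differences its PCR on individual rats bore out. For further genes, left unnamed, the paper puts the lack of statistical support down to variation between animals. It states that the mean changes of those genes matched its array results. Whether Reg3g was among them is not stated. The paper also lists the Reg1a, Reg3b and Reg3g probe sets among the transcripts induced by SPI.

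Reg1a was read by 2 probe sets, both brightest with SPI and both compared only because of their SPI signals. The E01983cds_s_at signals were 60.4, 79.6 and 59.2 with CAS, 2150, 1882 and 1994 with SPI and 85.2, 61.8 and 106.7 with WPH. SPI stood apart, while CAS and WPH overlapped and 1 of their 6 signals passed 100. The M62930_at signals were 2.8, 5.4 and 1.1 with CAS, 4375, 3065 and 4145 with SPI and 47.3, 30.6 and 77.7 with WPH. Here too SPI stood apart, and the other 6 signals were all under 100, so that WPH and CAS are not compared for Reg1a. With signals under 100 raised to 100, because such dim signals carry no reliable level, SPI was at least 20.1-fold above CAS by E01983cds_s_at and at least 38.6-fold by M62930_at, and 38.6-fold was also the bound against WPH for the latter. Against WPH, E01983cds_s_at gave a 23.8-fold difference (log2 change 4.60), the means being 2009 ± 135 and 84.6 ± 22.5, although only 1 of the 3 WPH arrays passed 100 and the fold is uncertain for that reason. The fitted log2 changes against CAS, 4.93 and 10.55, rest on CAS signals under 100, and the second is no measured fold.

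Reg3a, the pancreatitis-associated protein II, showed no separation of the diets. Its signals were 1.8, 6.6 and 11.9 with CAS, 7.8, 5.5 and 5.2 with SPI and 5.4, 10.2 and 8.2 with WPH. All 9 lay under 100 and the diets overlapped, so that D23676_at did not pass the filter and has no fold change. A difference of Reg3a between diets was not detectable with this probe set.

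**Figure D2:**
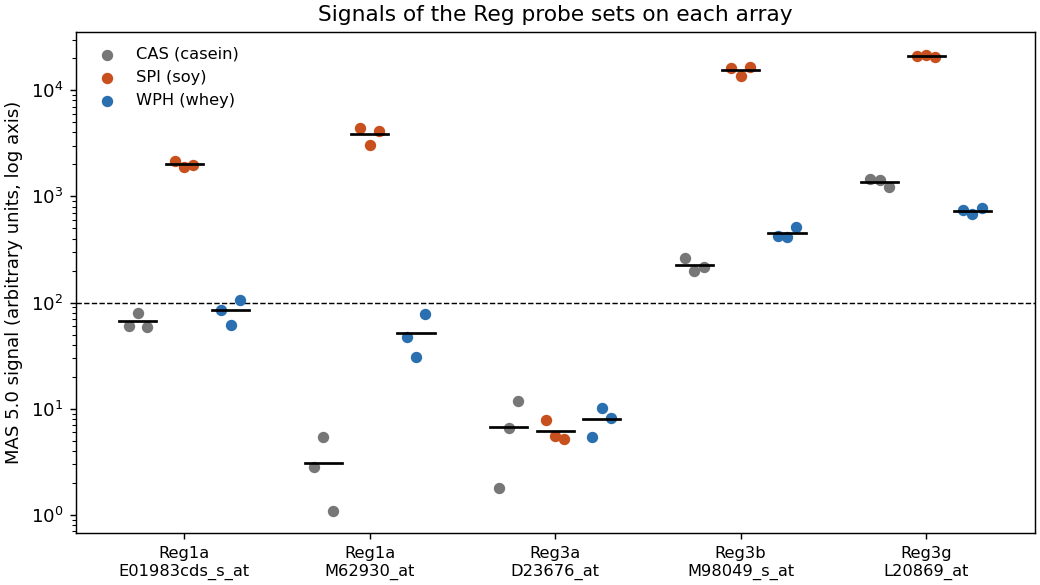
Signal of each Reg probe set on each of the 9 arrays, in arbitrary units on a log axis, with points for arrays, bars for the mean of 3 arrays and a dashed line at 100. SPI points lie far above CAS and WPH for Reg1a, Reg3b and Reg3g, while all 9 Reg3a points lie under the line.

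A probe set was called if it changed by 2-fold or more with an adjusted p under 0.05 in limma's moderated test over all 5606 probe sets. Of the 4 Reg probe sets compared, 4 were called higher with SPI than with CAS, where 2.39% of all probe sets were, and 4 were called higher with SPI than with WPH, where 4.5% were. Those comparisons share the SPI arrays, and the genes had been selected on them, so nothing is read from these counts. Over all 5606, the median log2 change with SPI was -0.01 against CAS and -0.08 against WPH. The counts of 4 and 4 were also reached under each alternative normalization, filter, test, block and left-out array that was run.

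The WPH and CAS diets gave smaller and opposite differences within the Reg3 pair. Reg3b was 2.01-fold higher with WPH (log2 change 1.01) and Reg3g was 1.87-fold lower (log2 change -0.90), beside a median of 0.06 over all probe sets. The diets did not overlap for either gene. How many of all probe sets lacked such overlap was not counted, so nothing is read from it. Reg3b and M62930_at were the 2 probe sets called, both higher with WPH, where 5.53% of all probe sets were called higher and 8.58% lower. M62930_at entered this comparison only through its SPI signals, and with all 6 CAS and WPH signals under 100 its call gives no measured difference, which leaves Reg3b. Reg3b fell under 2-fold and lost its call when CAS 2, CAS 3 or WPH 3 was left out, which left 1 call of the 2. WPH 2, the WPH array that shared a round with CAS, gave log2 differences of 0.90 for Reg3b and -0.99 for Reg3g against the 3 CAS arrays.

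Reg3b and Reg3g therefore changed unequally between diets. The ratio of the Reg3b to the Reg3g signal on the same array was 0.182, 0.137 and 0.174 with CAS, 0.758, 0.63 and 0.804 with SPI and 0.573, 0.602 and 0.664 with WPH. CAS arrays lay below all others, whereas the SPI and WPH ratios overlapped. The size of the ratio itself has no meaning, since the probe sets differ, and its shift between diets shows only that the signals did not move by the same factor.

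**Figure D3:**
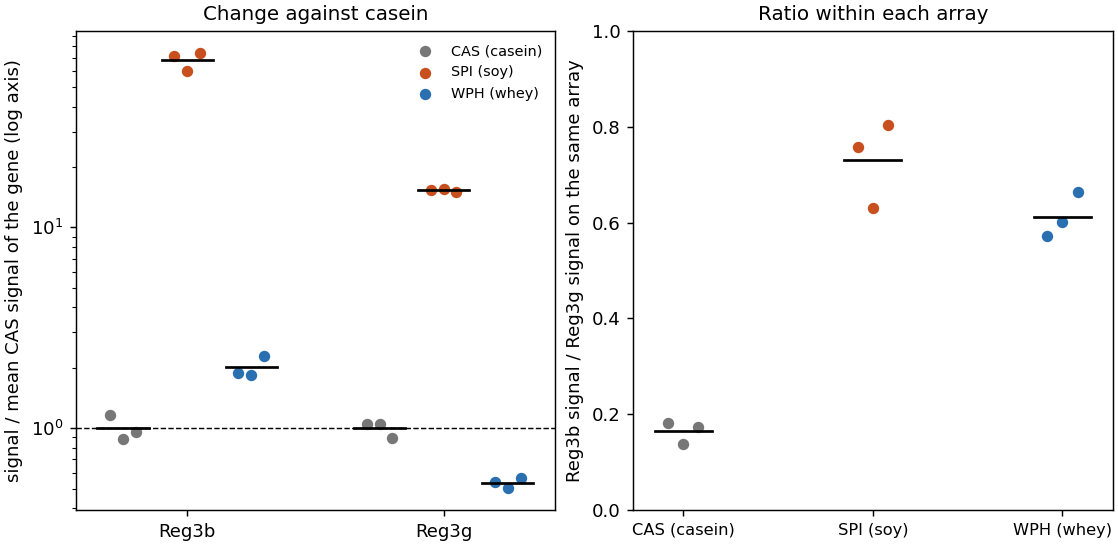
Left, Reg3b and Reg3g signals on each array divided by the mean CAS signal of the gene, on a log axis, and right, the Reg3b to Reg3g signal ratio of each array, with bars for means of 3 arrays. WPH points lie above the CAS mean for Reg3b and below it for Reg3g, and the CAS ratios of 0.137 to 0.182 lie below those of SPI and WPH.

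Across the 9 arrays, with signals under 100 set to 100, the log2 signals of the 4 Reg probe sets correlated with each other at Pearson r of 0.945 (Reg3b with Reg3g) to 0.999 (the Reg1a probe sets). The arrays form 1 separate cluster of SPI and 1 of the other diets, so these values describe little more than that split. By the same measure against the mean Reg pattern, 3606 other probe sets with a mean of at least 200 in their brightest diet were ranked. The 10 most alike belonged to 8 genes and had r of 0.9964 to 0.9997, followed by 0.9953 for the next, and 16 in all reached 0.99.

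Several of these 10 belong to metabolism and iron uptake of the absorptive epithelium. Cps1, the mitochondrial enzyme that makes carbamoyl phosphate, had means of 35.6 ± 2.75 (CAS), 2109 ± 135 (SPI) and 69.3 ± 10.1 (WPH), at least 21.1-fold higher with SPI than with either diet. Slc11a2, the divalent metal transporter of the brush border, was among the 10 with 3 probe sets, of which AF008439_g_at averaged 504 ± 22.9, 6632 ± 567 and 554 ± 33.1. Rbp2, the cellular retinol binding protein of enterocytes, averaged 91.7 ± 17, 469 ± 34.7 and 24.2 ± 12.5. Prap1, a secreted proline-rich acidic protein of gut epithelium, averaged 92 ± 35.4, 1045 ± 69.4 and 75.9 ± 36.4.

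The others were a matrix protease, a bone and wound matrix protein, a cytokine and a serine protease. Mmp13, a collagenase, averaged 23.1 ± 9.22, 563 ± 51 and 19.9 ± 8.51, at least 5.63-fold higher with SPI than with CAS. Spp1, which encodes osteopontin, averaged 55 ± 10.9, 6130 ± 793 and 105 ± 31.9. Il1a (D00403_g_at), interleukin-1 alpha, and Prss22, a serine protease, averaged 288 ± 23.9 and 274 ± 16.3 with SPI. The means of these 2 probe sets were under 100 with both other diets. The brighter Il1a probe set, D00403_at, was not so dim with CAS and averaged 155 (CAS), 437 (SPI) and 79 (WPH). Against CAS its limma adjusted p was 0.0211, but 0.695 with fluidics round as a block (log2 change -0.35). The ranking rests on the floor and the measure, as 4 of these 10 stayed in the first 10 without the floor of 100 and 0 did so by Spearman's rho, which was 0.633 to 0.888 for them.

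**Figure D4:**
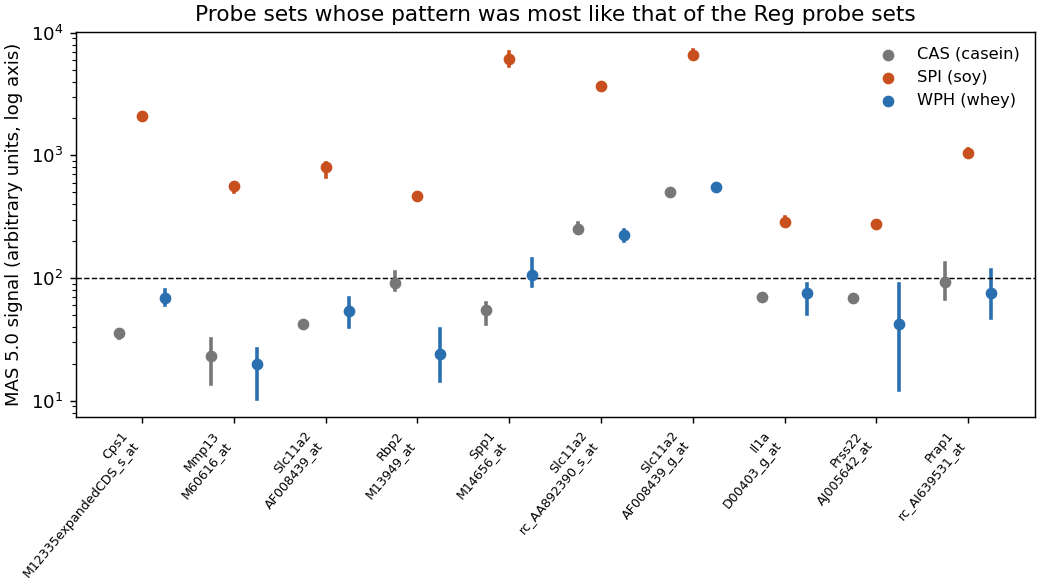
Mean signals by diet of the 10 probe sets whose pattern over the 9 arrays was most like that of the Reg probe sets, in arbitrary units on a log axis, with lines from the lowest to the highest of 3 arrays and a dashed line at 100. In all 10 the SPI arrays lie above those of CAS and WPH, most of which are under the line at 100, and CAS and WPH themselves are apart for Rbp2, Cps1 and Spp1.

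Genes of the pathways and cell types known for Reg expression were then counted in 7 lists, with 1 probe set per gene and an adjusted p under 0.05 in limma as the mark of a change. The lists were drawn up with earlier results of these data known, and some genes stand in more than 1 list. Over all probe sets compared, 12% were higher and 10.2% lower with SPI than with CAS, and 10.1% higher and 9.83% lower with SPI than with WPH.

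The STAT3 cytokine list, which holds the receptors, kinases and inhibitors of the pathway best known for Reg3 induction, had 24 of its 42 genes on the array and 16 compared. With SPI against CAS only Junb, an AP-1 subunit and STAT3 target, changed among the 16, and it was lower (log2 change -0.62, adjusted p = 0.00584), while the list's median log2 change was 0.24. Against WPH 2 changed, both higher, Junb (0.64, adjusted p = 0.00569) and the kinase gene Pim3 (0.60, adjusted p = 0.0291), with a median of -0.07. Stat3 itself had means of 93.2 ± 19.8 (CAS), 93.2 ± 11.6 (SPI) and 92 ± 41.5 (WPH), and the feedback inhibitor Socs3 averaged 40.2, 34.8 and 53.3. Both were too dim to be compared, as was Il6 at 17.6, 34.3 and 30.9, and no probe set carried Il22 as its only symbol. With fluidics round as a block, none of the calls for Junb and Pim3 held. The summed signal of the 24 genes overlapped between diets, at 4930 to 5263 (CAS), 4680 to 5163 (SPI) and 4445 to 4937 (WPH).

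Among 19 compared genes of gut antimicrobial defence, 8 were higher and 3 lower with SPI than with CAS (median log2 change 0.25), and 13 changed against WPH, all 13 higher (median 1.10). S100a9, a subunit of the antimicrobial protein calprotectin, had means of 27.7 (CAS), 783 ± 158 (SPI) and 71.7 (WPH), at least 7.83-fold higher than with CAS (adjusted p = 2.36e-06). Its partner S100a8 averaged 347 ± 90.9 with SPI and was under 100 on the other arrays, at least 3.47-fold higher than with CAS (adjusted p = 0.00063). C3, Lcn2 and Mmp7, which encode a complement protein, a siderophore-binding protein and matrilysin, averaged 208, 223 and 289 with SPI and were higher than with CAS by at least 2.08-fold, 2.23-fold and 2.89-fold (adjusted p = 0.0116, 0.0378 and 0.00102). Defb1, a defensin of epithelia, went the other way, from 2238 ± 102 with CAS to 219 ± 81 with SPI, 10.2-fold lower (adjusted p = 3.35e-06). The list's summed signal was highest with CAS, at 36395 to 40337, against 30844 to 35378 with SPI and 10434 to 12000 with WPH. The 8 higher calls became 3 with fluidics round as a block, when those of S100a8, C3 and Lcn2 were lost (adjusted p = 0.132, 0.126 and 0.425), and 5 when SPI 1 was left out.

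Inflammation and wound response genes, which share 8 genes on the array with the defence list, had 35 members compared. With SPI 17 were higher and 1 lower than with CAS (median log2 change 0.69), and 16 were higher and 2 lower than with WPH (median 0.52). Spp1 was at least 61.3-fold higher with SPI than with CAS (adjusted p = 3.52e-09). Mmp12, the macrophage elastase, had means of 85.6 (CAS), 1010 ± 185 (SPI) and 120 (WPH), at least 10.1-fold higher than with CAS (adjusted p = 7.19e-07). The list's summed signal ranged from 9536 to 9768 with CAS, from 21099 to 23630 with SPI and from 10731 to 10772 with WPH. The sum was thus highest on the same arrays as the Reg signals. Spp1, which was also picked for its Reg-like pattern, averaged 55 (CAS), 6130 (SPI) and 105 (WPH) in it. No sum was taken without Spp1, and the part of the list in the Reg result was not tested. The 17 higher calls against CAS became 7 with fluidics round as a block.

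Lectins outside the Reg family changed against CAS about as often as all probe sets did. Of 22 compared, 2 were higher and 2 lower with SPI than with CAS (median log2 change 0.11), and 6 were higher and 1 lower than with WPH (median 0.11). Zg16, a lectin of goblet cell mucus and of pancreatic granules, was lower with SPI (1077 ± 44) than with CAS (1990 ± 132) and higher than with WPH (449 ± 18.8), at adjusted p = 7.02e-05 and 4.32e-06. Lgals3bp, a galectin-binding glycoprotein, rose from 896 with CAS to 1513 with SPI (adjusted p = 0.000451), and Lgals3, galectin-3, fell from 11265 to 7776 (adjusted p = 0.00125). Lgals1, a galectin of stromal and muscle cells, averaged 8312, 11508 and 18130 with CAS, SPI and WPH (SPI against CAS, adjusted p = 0.0294). Sftpd and Lgals9, a collectin and a galectin, were higher with SPI than with WPH, at means of 131 against 52.7 and 720 against 434. With fluidics round as a block the calls against CAS of Lgals3bp, Lgals3 and Lgals1 were lost (adjusted p = 0.0878, 0.125 and 0.324), as was that of Sftpd against WPH (adjusted p = 0.0506).

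Reg proteins are also secreted by pancreatic acinar cells, whose markers were read as a check on the tissue. Of 27 such genes on the array, 17 were under 100 on all 3 arrays with CAS, and 16 were with SPI as well as with WPH. The summed signal of the 27 ranged from 4133 to 4460 with CAS, from 2719 to 3028 with SPI and from 2659 to 2952 with WPH. Without Zg16 and Cuzd1, which carried the CAS excess, the sum ranged from 1562 to 1856, from 1594 to 1956 and from 2189 to 2452. The part of such cells in the Reg result was not tested. Of 11 genes compared, 1 was higher and 2 were lower with SPI than with CAS (median log2 change -0.38), and likewise 1 and 2 against WPH (median -0.39). The higher one against CAS was Prss1, a trypsinogen, at 76.7 (CAS), 130 (SPI) and 236 (WPH), and the lower ones were Zg16 and Cuzd1, a zymogen granule protein, at 587 (CAS), 51.9 (SPI) and 35.6 (WPH). By mean log2 signal over all arrays, the brightest members besides Zg16 were Pnlip (207, 248 and 453), Cela2a (133, 189 and 217) and Sycn (153, 113 and 209). Of these, Pnlip, pancreatic lipase, was lower with SPI than with WPH (log2 change -0.89, adjusted p = 0.00789). With fluidics round as a block the calls of Prss1 against CAS and Pnlip against WPH were lost (adjusted p = 0.239 and 0.0789).

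Markers of the absorptive cells of the small intestine moved in both directions. Of 34 compared, 9 were higher and 8 lower with SPI than with CAS (median log2 change 0.08), whereas against WPH 16 changed, all 16 higher (median 0.58). Cps1, Slc11a2 and Rbp2 were higher than with CAS (adjusted p = 1.73e-09, 7.55e-10 and 0.000599), and so was Apoa1, a high-density lipoprotein component, at 550 with CAS, 1370 with SPI and 223 with WPH (adjusted p = 8.64e-05). Fabp2, a fatty acid carrier, was 4.43-fold lower (adjusted p = 0.00119). Cyp3a9, a cytochrome P450, averaged 2481 with CAS and 2626 with SPI and was 7.31-fold higher with SPI than with WPH. Summed signals were 26525 to 28704 with CAS, 30805 to 33122 with SPI and 14899 to 15490 with WPH, highest on the SPI arrays as the Reg signals were. Without Slc11a2, which was also picked for its Reg-like pattern, the sums were 26015 to 28226, 24368 to 25851 and 14344 to 14970, and SPI lay below CAS. The part of such cells in the Reg result was not tested. With fluidics round as a block, 2 of the list were higher and 3 lower against CAS, and the calls against CAS of Rbp2, Apoa1 and Fabp2 were lost (adjusted p = 0.142, 0.0687 and 0.349).

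The tissue labels were checked with markers of colon epithelium and smooth muscle, and with Wnt targets that are raised in adenomas. Summed signals of 22 colon epithelial markers were 88014 to 95088 with CAS, 52885 to 55632 with SPI and 25846 to 27772 with WPH, so that the SPI arrays, with the highest Reg signals, lay between the other diets. Of 20 compared, 15 changed with SPI against CAS, all 15 lower (median log2 change -0.87, 9 lower with fluidics round as a block), and 16 changed against WPH, all 16 higher (median 1.23). Smooth muscle markers ran the other way, with sums of 118171 to 120518, 168559 to 172556 and 226558 to 257210. All 9 were higher with SPI than with CAS (median 0.50) and 8 were lower than with WPH (median -0.50), although 1 and 1 were after quantile normalization, and 3 and 4 with fluidics round as a block. The sums of both lists thus differed between diets, and their part in the Reg result was not tested.

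Of 25 Wnt and adenoma genes compared, 3 were higher and 4 lower with SPI than with CAS (median log2 change -0.03), and 7 were higher and 2 lower than with WPH (median 0.18). The 3 higher against CAS were Spp1, Mmp7 and Fzd1, a Wnt receptor at 395 with CAS and 603 with SPI (adjusted p = 0.0123). Id1, an inhibitor of differentiation factors, fell from 3604 to 1288 (adjusted p = 0.000112), and Top2a, a topoisomerase of dividing cells, fell from 882 to 594 (adjusted p = 0.00885). Plaur, the urokinase receptor, had means of 718 (CAS), 532 (SPI) and 272 (WPH) and was higher with SPI than with WPH (adjusted p = 0.00489). With fluidics round as a block no gene of the list was called lower against CAS, Id1 and Top2a being at adjusted p = 0.0599 and 0.0658, Fzd1 was no longer called higher (adjusted p = 0.449), and 4 in place of 7 were higher against WPH.

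**Figure D5:**
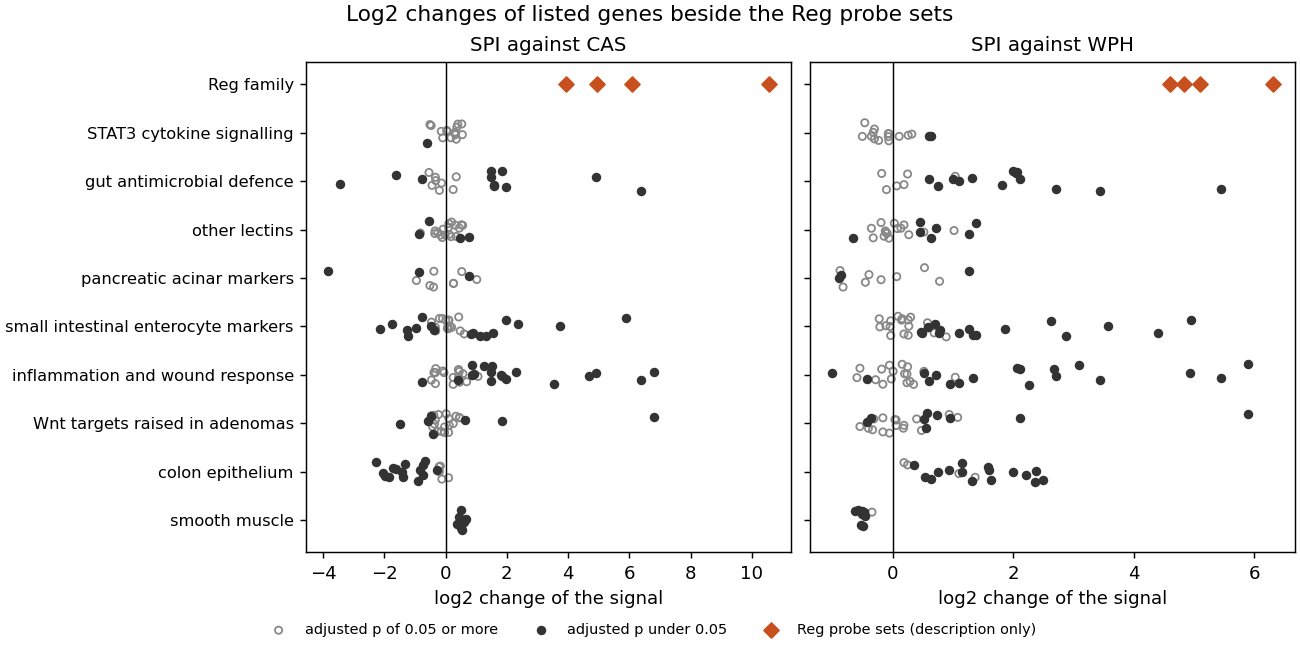
Log2 change of each compared gene of the lists with SPI against CAS (left) and SPI against WPH (right), with 1 row per list, filled points at an adjusted p under 0.05 and diamonds for the 4 Reg probe sets, shown as a description. The Reg3b and Reg3g diamonds lie at 6.10 and 3.94 against CAS and at 5.09 and 4.84 against WPH, and the diamonds farthest right, at 10.55 and 6.30, are M62930_at, whose CAS and WPH signals were under 100.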

How the data were processed

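Proximal colon RNA pools of 3 diets were read on 9 Affymetrix rat arrays, 3 per diet, grouped by the diet in the sample titles. The deposited values are intensity estimates that the authors computed with MAS 5.0 and scaled to an average of 500 per array. They carry no detection calls, and no further normalization was applied here.

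Signals under 0.1 were set to 0.1 before log2. Of 8799 probe sets, 59 controls were left out, and 5606 with a mean of at least 100 in at least 1 diet were fitted in 1 model over all 9 arrays with limma 3.58.1 in R 4.3.3 (variance trend, Benjamini-Hochberg adjustment). The fit was tested on simulated data. Folds are ratios of mean signals. Where all 3 arrays of the dimmer diet lay under 100, those signals were set to 100 and the fold is a lower bound, and no fold is given where both diets were that dim. Precision is limited by 3 arrays per diet.

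The platform annotation gave 1 symbol to 7018 probe sets, several to 308 and none to 1473. The members and the lists were chosen with earlier results of these data known. In each list a gene was read by its brightest probe set over all arrays, and the text names up to 4 members with the largest change past an adjusted p of 0.05 against CAS, up to 2 more against WPH, Il6, Il22, Stat3 and Socs3, and the 4 brightest pancreatic genes. The 10 probe sets of like pattern were ranked by Pearson correlation. Promoters were read from RefSeq sequences of GRCr8, the array itself having no genome build. Protein sequences and probe sequences were not used here, so that signal shared between Reg genes or with Reg3b-ps1 were not examined. The instrument settings files were used only for the clock times from which the fluidics rounds were inferred. Alternatives were a constant of 32 added before log2, quantile normalization, no variance trend, no filter on dim probe sets or a minimum of 200, a fit of only the diets compared, the methods' t-test, replicate number or fluidics round as a block, a floor of 50 and leaving out each array. Differences within a fluidics round and list sums without single members were added after the data were seen. Python 3.11.15, numpy 2.4.6, pandas 2.3.3 and matplotlib 3.10.9 were used for the other steps.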

Additional observations from a re-analysis of the deposited data

How the results depend on the processing

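The Reg counts of 4 and 4 with SPI held under every alternative that was run, as did the directions of the Reg changes, except that E01983cds_s_at with WPH against CAS went from a log2 change of 0.33 to -0.09 with fluidics round as a block and within the first round. The count of 2 for WPH against CAS was 1 with log2 of the signal plus 32, with only the diets compared, with fluidics round as a block and by the methods' t-test after Benjamini-Hochberg adjustment, and 1 to 2 when single arrays were left out. With a floor of 50 in place of 100, the lower bound for SPI against CAS was 77.2-fold by M62930_at, while the ratios of means, then no longer bounds, were 30.3 for E01983cds_s_at against CAS and 74.5 for M62930_at against WPH.

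With fluidics round as a block, which compares SPI with CAS only by way of WPH, list counts for SPI against CAS became 0 lower for STAT3, 3 higher and 1 lower for defence, 0 higher for other lectins, 0 higher for pancreas, 2 higher and 3 lower for enterocytes, 7 higher and 0 lower for inflammation, 0 lower for Wnt targets, 9 lower for colon epithelium and 3 higher for smooth muscle. Against WPH they became 0 higher for STAT3, 3 higher and 0 lower for lectins, 0 lower for pancreas, 1 lower for inflammation, 4 higher and 0 lower for Wnt targets and 4 lower for smooth muscle. Over all probe sets, calls went from 322 to 202 against CAS and from 310 to 260 against WPH. The cause was not tested.

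The methods' t-test after adjustment gave, against CAS, 0 lower for STAT3, 1 higher for lectins, 0 higher for pancreas and 1 lower for Wnt targets, and, against WPH, 0 higher for STAT3, 0 lower for lectins, 1 lower for pancreas, 1 lower for inflammation, 2 higher and 1 lower for Wnt targets and 3 lower for smooth muscle. Without adjustment at P under 0.05 it gave, against CAS, 1 higher for STAT3, 4 lower for lectins, 2 higher for pancreas and 2 lower for inflammation.

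Quantile normalization gave 1 higher each for STAT3, lectins and smooth muscle against CAS and 1 lower each for inflammation, Wnt targets and smooth muscle against WPH. Without the variance trend, 1 lectin was higher against CAS, and against WPH 1 STAT3 gene was higher, 1 inflammation gene lower and 0 Wnt targets lower. With only the diets compared, 0 pancreatic genes were higher against CAS, and without a filter 1 Wnt target was lower against WPH.

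Replicate numbers did not pair the arrays, since deviations of same-numbered arrays from their diet means correlated at -0.275 to 0.237. The replicate block left the Reg counts at 4, 4 and 2 and gave 1 lectin and 0 pancreatic genes higher against CAS and 1 inflammation gene and 0 Wnt targets lower against WPH.

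Leaving out single arrays gave ranges, against CAS, of 5 to 9 higher for defence, 1 to 2 higher for lectins, 0 to 2 higher for pancreas, 1 to 2 lower for inflammation and 2 to 5 lower for Wnt targets. Against WPH the ranges were 1 to 2 higher for STAT3, 1 to 2 higher and 1 to 3 lower for pancreas, 1 to 2 lower for inflammation and 0 to 2 lower for Wnt targets. Signals under 100 leave Reg3a without a fold. They limit the Reg1a folds of SPI against CAS, and that of M62930_at against WPH, to lower bounds.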
